A study of Homo sapiens with 12 samples.

Results

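The elements described here are 8-base RNA sites that depart at exactly 2 fixed positions from the Pumilio consensus, which reads in DNA letters TGTA, any base, ATA. One change lies at position 3, the last base of the TGT core, and the other at position 6, 7 or 8. Positions count from 1 starting at the element's first (5′) base. They were defined by sequence alone, although earlier results of these data were known when the definition was chosen. There are 3 possible bases at position 3, 9 possible changes at positions 6 to 8 and 4 bases at the free position 5. This gives 3 sets of 36 elements, 1 set for each of T3A, T3C and T3G. Every one of these was among the 1006 elements listed in all 12 libraries (1022 were seen in any library), with at least 4190 reads each time.

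Pumilio proteins bind RNA through a row of repeats, each of which contacts about a base of the site, and repress and destabilise the mRNAs they bind. The site begins with UGU in RNA, which is shared by Pumilio-family sites from yeast to human, and continues with an A-rich stretch whose free position tolerates any base. Human PUM2 is a member of this family. In RBPscan, PUM2 is fused to a mutated catalytic domain of the RNA editing enzyme ADAR (ADARcdMUT), which turns adenosine into inosine, read as G. A reporter mRNA carries the element beside a recorder hairpin, so that a protein held on the element edits the recorder.

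HEK293T cells, a line from human embryonic kidney labelled wild type, expressed the reporter library. There were 4 groups of 3 biological replicates. The hsPUM2-ADARcdMUT fusion was left non-induced or used at 25 ng or at 250 ng, and a last group had 1000 ng of ADARcdMUT lacking PUM2. The fusion was under doxycycline control, and every group carried the same reporter library. The titles do not say what substance the amounts refer to, so 1000 ng may not be on the same scale as 25 ng and 250 ng. Nothing in the sources used here gives protein levels, so construct and amount cannot be told apart in any comparison with ADARcdMUT. Editing is given below as a level: of the 7 recorder adenosines summed over all reads of an element, the percent that was edited. Libraries held 11235321 to 25127959 reads, and the double substitutions took 10.2% to 11.6% of them, with 4190 to 50946 reads per element.

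The sequences below are shown because the double substitution with the highest gain is among them. Capitals mark the bases that differ from the consensus. The set holds the consensus form with T at position 5, the matching single changes at position 3, and the 3 double substitutions in which A6G beside a T at position 5 writes TGTA again at positions 5 to 8.
TGTATATA: tgtatata
TGAATATA: tgAatata
TGCATATA: tgCatata
TGGATATA: tgGatata
TGAATGTA: tgAatGta
TGCATGTA: tgCatGta
TGGATGTA: tgGatGta

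Across the doses the double substitutions followed the library as a whole. Most elements of the library also differ from the consensus at 2 fixed positions, these included. Closeness to the library median is therefore partly built in, and places these elements near a typical doubly changed element. Their median level was 1.84% ± 0.109 without induction, 4.31% ± 0.199 at 25 ng and 7.81% ± 0.0672 at 250 ng (SD, n = 3), beside 1.82% ± 0.0991, 4.34% ± 0.194 and 7.87% ± 0.0992 for all 1006 elements. With ADARcdMUT alone the medians were 1.95% ± 0.103 for the double substitutions and 1.95% ± 0.120 for all elements. The 4 consensus elements, by contrast, had a median of 13.3% ± 0.288 at 250 ng and 1.79% ± 0.0794 without induction. Single changes at position 3 alone reached a median of 8.14% ± 0.0620 at 250 ng (12 elements), and single changes at position 6, 7 or 8 reached 9.71% ± 0.0574 (36 elements).

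By library, the median over the double substitutions was 7.73%, 7.85% and 7.84% at 250 ng, against 1.74%, 1.96% and 1.83% without induction. The 25 ng libraries lay between them at 4.21%, 4.53% and 4.17%. The ADARcdMUT libraries, at 2.05%, 1.94% and 1.85%, overlapped the non-induced ones. In limma's moderated fit of log2 odds of editing over all elements, all of them were higher at 250 ng than without induction, as were 100% of the elements tested. The same held for 25 ng against no induction, for 250 ng against 25 ng and for 250 ng against ADARcdMUT, where every one was higher and the background was 100% each time. These comparisons share libraries. The median gain over the non-induced level was 2.46 percentage points at 25 ng and 5.96 points at 250 ng, a ratio of 2.42, against 2.52 and 6.05 points and a ratio of 2.399 for all elements.

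The rise had 2 components, and the double substitutions resembled the library in both. The share of their reads with at least 1 edit had a median of 7.04% ± 0.147 without induction, 13.7% ± 0.104 at 25 ng and 22.2% ± 0.309 at 250 ng. An edited read carried 1.83 ± 0.0807 edits without induction, 2.19 ± 0.102 at 25 ng and 2.46 ± 0.0181 at 250 ng. Consensus elements reached 29.2% ± 0.287 edited reads and 3.199 ± 0.0383 edits per edited read at 250 ng. For all elements the 250 ng values were 22.3% ± 0.402 and 2.48 ± 0.0176.

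Variation among the double substitutions was small. At 250 ng their levels ranged from 7.19% ± 0.160 in TGAAGATC to 9.89% ± 0.265 in TGCATGTA, with an SD of 0.321 points between elements. The typical SD between replicates of an element was 0.158 points, and the typical binomial counting error was 0.0775 points. That error takes the recorder adenosines of a read as independent, so it is too small where edits fall together in a read. Over all 1006 elements the SD between elements was 0.747 points. Without induction the range was 1.53% ± 0.171 in TGGACGTA to 2.33% ± 0.200 in TGGATATG. There the SD between the means of the double substitutions was 0.143 points.

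The comparison of 250 ng with no induction addressed whether any of these elements has a gain of its own. Because the whole library rose, changes are given in log2 odds after subtracting each library's median, called relative changes below. That median is largely set by doubly changed elements, so a relative change compares an element mainly with those. Among the double substitutions 1 was higher and 4 were lower by limma at an adjusted p under 0.05, against 9.64% higher and 3.38% lower among all elements tested. The median relative change was -0.04 for the double substitutions, 0.01 for all elements, 0.07 for the position 3 singles, 0.37 for the singles at positions 6 to 8 and 0.85 for the consensus. A typical standard error for the change of 1 double substitution was 0.07, and 19 of the double substitutions had an unadjusted p under 0.05. Without overlap between the 3 induced and the 3 non-induced libraries were 8 elements on the higher side and 26 on the lower, beside 21.8% and 17.9% of all elements. The count of 4 lower elements became 2 on leaving out either replicate 1 or replicate 3 of the 250 ng group, and 8 on leaving out the first ADARcdMUT library. The higher count was 2 without non-induced replicate 1 or ADARcdMUT replicate 1 or 3.

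The element that stood higher was TGCATGTA (T3C and A6G), which spells TGTA from position 5. Its levels were 10.2%, 9.75% and 9.72% at 250 ng, against 1.67%, 1.97% and 1.88% without induction. At 25 ng it had 5.09%, 5.27% and 5.04%, and with ADARcdMUT alone 2.23%, 2.29% and 1.896%. Every induced library thus lay far above every other one. The relative change was 0.35 (SE 0.06, limma adjusted p = 0.000842) at 250 ng and 0.24 (SE 0.06, limma adjusted p = 0.0168) at 25 ng. Against ADARcdMUT it was 0.22 (SE 0.06, limma adjusted p = 0.0188). The call at 250 ng against no induction was made under all 21 other settings tried.

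Its T3A counterpart TGAATGTA had the second highest relative change. It was at 9.15%, 9.18% and 9.14% at 250 ng, against 1.47%, 2.07% and 1.81% without induction. At 25 ng it was at 4.74%, 5.301% and 4.42%, and with ADARcdMUT alone at 2.09%, 2.098% and 1.42%. Its 250 ng libraries were nearly alike, while the non-induced and ADARcdMUT libraries were spread widely. The relative change of 0.28 (SE 0.10) at 250 ng did not pass (limma adjusted p = 0.0941). It passed on the arcsine scale (limma adjusted p = 0.000999), with only the 2 groups (0.0294) and without ADARcdMUT replicate 3 (0.0207). In percentage points, a scale added after the data were seen, its gain exceeded the library median by 1.32 points (limma adjusted p = 1.13e-06).

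The T3G counterpart TGGATGTA did not follow. It was at 8.18%, 7.89% and 8.53% at 250 ng, against 2.196%, 2.16% and 2.14% without induction. At 25 ng it was at 4.33%, 5.23% and 4.53%, and with ADARcdMUT alone at 2.86%, 1.98% and 2.13%. Its non-induced level was above the median of the library in all 3 libraries. The relative change at 250 ng was -0.19 (SE 0.09, limma adjusted p = 0.208), and in points it was -0.02 (limma adjusted p = 0.953). In a fit of only the 2 groups the relative change passed (limma adjusted p = 0.0384). The other 9 A6G double substitutions, which hold no TGTA, had a median level of 7.855% ± 0.0294 at 250 ng and a median relative change of -0.05, with 0 called by limma. No double substitution outside these 3 held TGTA or TGT.

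Other library elements that end in TGTA place these 3 in context. There were 10, namely the single change TGTATGTA and 9 double substitutions at position 1, 2 or 4 with A6G. Their median level was 9.51% ± 0.113 at 250 ng, against 1.903% ± 0.125 without induction, and 6 of the 10 were higher and 0 lower by limma in relative terms. TGTATGTA itself was at 10.4% ± 0.292 at 250 ng, with a relative change of 0.44 (SE 0.08, limma adjusted p = 0.00124). The lowest relative change of the 10 was that of TGTGTGTA, at -0.17 (limma adjusted p = 0.0561), from a non-induced mean of 2.43%. In points its gain lay 0.750 above the library median (limma adjusted p = 0.000206). On that scale the 10 lay 0.750 to 2.50 above the median, each called higher by limma, beside 20.5% of all elements. Their mean levels at 250 ng ran from 9.05% in TCTATGTA to 10.4% in GGTATGTA. TGCATGTA (9.89%) and TGAATGTA (9.16%) lay within that range, and TGGATGTA (8.20%) lay below it.

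In log2 odds the largest shortfall was that of TGGATAGA (T3G and T7G). Its levels were 7.87%, 7.98% and 7.98% at 250 ng, against 2.196%, 2.26% and 2.33% without induction. At 25 ng they were 4.49%, 4.97% and 4.52%, and with ADARcdMUT alone 2.57%, 2.56% and 2.05%. The level at 250 ng was ordinary and the starting level high. Its relative change was -0.31 (SE 0.06, limma adjusted p = 0.00277) at 250 ng, -0.22 (limma adjusted p = 0.0386) at 25 ng, and -0.29 (limma adjusted p = 0.00435) at 250 ng against ADARcdMUT. In points its gain was below the library median by 0.371 (effect -0.371, limma adjusted p = 0.0282).

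TGGAAATG (T3G and A8G) was at 7.35%, 7.88% and 7.86% at 250 ng, against 1.93%, 2.22% and 2.12% without induction. At 25 ng it was at 4.31%, 4.47% and 4.205%, and with ADARcdMUT alone at 1.91%, 1.94% and 1.82%. Its ADARcdMUT levels overlapped the lowest of the non-induced ones, and all 250 ng levels were higher than both. The relative change at 250 ng was -0.24 (SE 0.05, limma adjusted p = 0.00563) against no induction but 0.01 against ADARcdMUT (limma adjusted p = 0.970).

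TGAATAGA (T3A and T7G) was at 7.64%, 8.03% and 7.92% at 250 ng, against 1.996%, 2.45% and 1.98% without induction. At 25 ng it was at 4.404%, 4.54% and 4.15%, and with ADARcdMUT alone at 2.07%, 2.17% and 1.93%. Its second non-induced library stood above the others. The relative change was -0.23 (SE 0.06, limma adjusted p = 0.0187) at 250 ng, and -0.08 (limma adjusted p = 0.413) against ADARcdMUT.

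TGGATAAA (T3G and T7A) was at 8.04%, 8.45% and 8.42% at 250 ng, against 2.01%, 2.42% and 2.09% without induction. At 25 ng it was at 4.68%, 4.696% and 4.32%, and with ADARcdMUT alone at 2.701%, 2.47% and 2.34%, the highest mean among the double substitutions there. Its relative change at 250 ng was -0.17 (SE 0.05, limma adjusted p = 0.0465) in log2 odds, but in points its gain lay 0.08 above the library median (limma adjusted p = 0.684). The call was thus lost in points and the estimate changed sign. Of the 21 other settings tried, the call was kept in 10 and lost without a change of sign in 10.

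The remaining elements at either end of the range did not pass. On the higher side TGAACCTA (0.21), TGGACGTA (0.21) and TGAACTTA (0.17) followed the pair above, with limma adjusted p of 0.238, 0.140 and 0.183. Of these, TGGACGTA and TGAACCTA had the lowest starting levels, 1.53% ± 0.171 and 1.55% ± 0.191. On the lower side TGGATATG had -0.29 (limma adjusted p = 0.0561) with the highest starting level among the double substitutions, 2.33% ± 0.200.

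Starting levels are given by base as a description. Elements with T3G had a median of 1.95% ± 0.0883 without induction, against 1.80% ± 0.123 with T3A and 1.84% ± 0.136 with T3C (36 elements each). The 9 that begin TGGAT, with T3G and T at position 5, were at 2.15% ± 0.0728 without induction and 2.38% ± 0.167 with ADARcdMUT alone. The other 99 were at 1.83% ± 0.117 and 1.93% ± 0.0959. At 250 ng the 9 were at 8.22% ± 0.180 and the other 99 at 7.78% ± 0.0601. In points the 9 gained 6.07 at the median, beside 5.95 for the other 99, whereas the median relative change in log2 odds was -0.16 beside -0.02. The lower median of the 9 was thus seen in log2 odds and not in points. TGGATAGA was the 1 element of the 9 called lower on both scales. The single change TGGATATA shared this pattern, with 2.25% ± 0.0441 without induction and a relative change of -0.27 (SE 0.08, limma adjusted p = 0.0368) at 250 ng.

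Sorted by the position 3 base, the median relative change at 250 ng was -0.01 for T3A, -0.02 for T3C and -0.08 for T3G, with 0, 1 and 0 elements higher and 1, 0 and 3 lower. Sorted by the other position it was -0.00 for position 6, -0.06 for position 7 and -0.04 for position 8. By the change made there, the medians ran from -0.10 for T7G to 0.05 for A6C (12 elements each). By the base at position 5 they were -0.01 for A, 0.01 for C, -0.08 for G and -0.07 for T (27 each). By content of A and T, the medians were -0.03 for 4 such bases, -0.04 for 5, -0.05 for 6 and 0.07 for 7 (24, 48, 30 and 6 elements). All of these medians lay between -0.10 and 0.07, and the differences between them were not tested.

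On the scale of percentage points 3 elements were higher and 13 lower at 250 ng, beside 20.5% and 14.2% of all elements. The higher ones were TGCATGTA, TGAATGTA and TGAACAAA (0.331 points above the library median, limma adjusted p = 0.0320). Of the 13 lower ones, 7 were among the 12 elements with T7G and 3 were the 3 elements with A8C and G at position 5. The lowest was TGAAGATC, at 7.01%, 7.32% and 7.24% at 250 ng against 1.698%, 1.95% and 1.71% without induction. Its gain differed from the library median by -0.650 points (limma adjusted p = 0.000138), while its relative change in log2 odds was -0.11 (limma adjusted p = 0.367). The T7G and A8C groups were singled out after these values were seen.

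Each double substitution was next set against the single changes it is made from, within each library and with the same base at position 5. This asks how a position 3 change alters the gain of an element already changed at position 6, 7 or 8, and the reverse. The fit covered all 1512 pairs of a double substitution and a parent in the library, of which 45.3% were lower and 0.926% higher in the gain at 250 ng by limma. A change at position 3 lowered the gain in 80 of the pairs with a single at positions 6 to 8 (1 pair for each double substitution) and raised it in none, with a median difference of -0.38 log2 odds. The same step at position 1, 2 or 4 lowered 80, 73 and 80 of as many pairs, with medians of -0.39, -0.34 and -0.37. In the other direction, a change at position 6, 7 or 8 lowered the gain of a position 3 single in 14 pairs and raised it in 1, with a median of -0.05. Added to singles at position 1, 2 and 4, such changes lowered 29, 25 and 56, with medians of -0.17, -0.18 and -0.24. Pairs share parents, so these counts are not independent.

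By the position of the other change, a position 3 change lowered 35 of 36 singles at position 8 (median -0.46), 24 of 36 at position 7 (-0.35) and 21 of 36 at position 6 (-0.30). All 12 pairs made from A8T, all 12 from A8G and all 12 from T7A were lower, with medians of -0.68, -0.46 and -0.50. Only 2 of 12 made from T7C and 3 of 12 from A6C were lower, with medians of -0.11 and -0.20. The parents also differed in level at 250 ng. Mean levels ran from 8.02% to 9.002% for the T7C singles and from 8.14% to 9.65% for A6C. They ran from 9.403% to 11.8% for A8T, 9.06% to 11.3% for T7A and 8.75% to 10.6% for A8G. Whether the loss depends on the other change beyond the level of the parent was not tested. By the position 3 base, T3A lowered 24 of 36, T3C 27 of 36 and T3G 29 of 36. The medians were close, at -0.38, -0.37 and -0.39. These differences include the starting level, whose median was highest for T3G, so the counts do not rank the bases by level at 250 ng.

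The largest losses came from TGTATATT, a single change (A8T) with a relative change of 0.80 at 250 ng. It was at 11.4%, 11.7% and 12.3% at 250 ng, against 1.32%, 1.88% and 1.77% without induction. At 250 ng its T3G, T3C and T3A derivatives TGGATATT, TGCATATT and TGAATATT were at 8.45% ± 0.211, 7.68% ± 0.203 and 8.004% ± 0.218. The differences in gain from TGTATATT were -0.94 (SE 0.09), -0.94 (SE 0.09) and -0.81 (SE 0.09), with limma adjusted p of 1.19e-05, 1.19e-05 and 1.28e-05. Part of each difference lay in the starting level, at 2.16%, 1.99% and 1.86% without induction against a mean of 1.65% for TGTATATT. Within the 250 ng libraries the differences in log2 odds were -0.53, -0.68 and -0.62, so that the T3G form was the least reduced there. TGGATATG against TGTATATG differed by -0.80 (SE 0.11), and TGGATAGA against TGTATAGA by -0.78 (SE 0.08). These T3G forms also started higher, at 2.33% and 2.26% without induction against 1.79% and 1.85% for their parents.

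Among the TGTA-bearing elements the T3G form alone passed the test against its single change. Against TGTATGTA, TGCATGTA differed by -0.09 (SE 0.10, limma adjusted p = 0.471) and TGAATGTA by -0.16 (SE 0.11, limma adjusted p = 0.267). TGGATGTA differed by -0.63 (SE 0.10, limma adjusted p = 0.000241). With these standard errors a loss of about 0.2 log2 odds could not be told from none.

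The pairs lowered by a change at positions 6 to 8 came from few position 3 singles. TGCACATA, the only position 3 single called higher at 250 ng, was at 8.798%, 8.64% and 8.91%, against 1.704%, 1.65% and 1.77% without induction (relative change 0.27, SE 0.07, limma adjusted p = 0.0131). Of the 14 lower pairs, 6 came from TGCACATA, 5 from TGAATATA and the others from TGCATATA, TGAACATA and TGAAGATA, with 1 each. The lowest was TGAATAGA against TGAATATA, at -0.42 (SE 0.09, limma adjusted p = 0.00113). Most of that difference lay in the starting level, at 2.14% and 1.74% without induction. Within the 250 ng libraries this pair differed by -0.11 log2 odds. No pair with a T3G parent was lower. The 1 higher pair was TGGATTTA against TGGATATA, at 0.23 (SE 0.08, limma adjusted p = 0.0342), at 8.23% and 8.08% at 250 ng. Most of that difference also lay in the starting level, at 1.97% and 2.25% without induction. Within the 250 ng libraries this pair differed by 0.03 log2 odds. Where the parent was TGCATATA, TGCATGTA was 0.22 higher (SE 0.09), which did not pass (limma adjusted p = 0.0577). The count of 14 was 6 without non-induced replicate 3, and 7, 6 and 4 without fusion 250 ng replicate 1, 2 or 3. The 1 higher pair was not called without non-induced replicate 2 or any 1 of the 250 ng libraries, and 3 pairs were higher without ADARcdMUT replicate 1 or 2.

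At 25 ng against no induction 1 double substitution was higher and 5 lower in relative change by limma, beside 7.06% and 2.19% of all elements. TGCATGTA was the higher one. The lower ones were TGAATAGA (-0.23), TGGATAGA (-0.22), TGGAAATG (-0.21), TGGATAAA (-0.18) and TGAAAAGA (-0.18), with limma adjusted p from 0.0214 to 0.0465. TGAAAAGA was at 4.04%, 4.304% and 3.86% at 25 ng, against 1.79%, 2.12% and 1.88% without induction. The lower count was between 0 and 2 when any 1 of the 9 fusion libraries was left out. TGCATGTA itself was not called without non-induced replicate 1 or fusion 25 ng replicate 1 or 3. In percentage points TGCATGTA and TGAATGTA were higher and TGAAAAGA lower, beside 10.6% and 1.69% of all elements. In the parent comparison a position 3 change lowered 72 pairs, and a change at positions 6 to 8 lowered 15 pairs and raised 1, beside 37.4% lower and 0.595% higher among all pairs. The count of 15 was 5 without non-induced replicate 3 or fusion 25 ng replicate 2, 8 without fusion 25 ng replicate 1, 9 without fusion 250 ng replicate 2 and 23 without ADARcdMUT replicate 1.

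The step from 25 ng to 250 ng asked whether the larger amount separates these elements. In relative change limma called 0 of the double substitutions, and 0 had an unadjusted p under 0.05. The background was 0.0% in each direction. The median change was 0.00, and TGCATGTA had 0.11 (limma adjusted p = 0.998). In percentage points TGCATGTA and TGAATGTA were higher and TGAAGATC and TGGAAAGA lower, beside 12.5% and 2.98% of all elements.

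The fusion at 250 ng was also compared with ADARcdMUT alone, from which it differs in both construct and amount. In relative change 2 elements were higher and 4 lower, beside 10.3% and 4.37% of all elements by limma. The higher ones were TGCATGTA and TGAAGATT (0.19, SE 0.06, limma adjusted p = 0.0418). Of 21 other settings, TGAAGATT was not called in 12 and TGCATGTA was not called in 4. TGAAGATT was at 7.29%, 7.84% and 7.81% at 250 ng, against 1.77%, 1.64% and 1.57% with ADARcdMUT alone. The medians over all elements were 7.78%, 7.87% and 7.97% at 250 ng and 2.06%, 1.96% and 1.82% with ADARcdMUT alone. The level of TGAAGATT was thus under the median in every library of both groups. The 4 elements called lower were all T3G elements: TGGATAAA (-0.29), TGGATAGA (-0.29), TGGATATT (-0.20) and TGGAAATT (-0.19), with limma adjusted p from 0.00168 to 0.0444. In points TGGATATT had 0.118 (limma adjusted p = 0.516), and TGGAAATT was not called in 13 of 21 other settings. In percentage points 3 were higher and 9 lower, beside 19.8% and 13.0% of all elements. TGGATATT was at 8.38%, 8.28% and 8.69% at 250 ng, against 2.61%, 2.35% and 2.26% with ADARcdMUT alone. The lower count was 2 without any 1 of the 250 ng libraries, and 7 without ADARcdMUT replicate 2 or 3. The higher count ranged from 0, without fusion 250 ng replicate 1 or 2, to 4, without non-induced replicate 1 or ADARcdMUT replicate 1 or 3. It was 1 without fusion 25 ng replicate 1, 2 or 3 or fusion 250 ng replicate 3.

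Both backgrounds, ADARcdMUT alone and the non-induced fusion, were compared as well. Among the double substitutions limma called 0 in levels and 0 in relative change, with 14 and 11 at an unadjusted p under 0.05. Of all elements 0.199% were higher and 0.0% lower on either scale. A quasi-binomial model likewise called 0. Without ADARcdMUT replicate 3, 9 double substitutions were higher in level, beside 11.6% higher and 0.0994% lower among all elements. In relative change 2 were then lower, beside 1.09% higher and 0.994% lower among all elements. Without non-induced replicate 3, 1 was lower in relative change, beside 0.0994%. Across the double substitutions the mean levels of the ADARcdMUT and non-induced libraries had a Pearson correlation of 0.719 (Spearman 0.659). These points share the reporter library and the sequences, and the value is a description.

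Read abundance was a further readout that the choice of elements did not use. The double substitutions took 10.6%, 10.5% and 10.2% of the reads at 250 ng, against 10.98%, 11.2% and 10.9% without induction. The 25 ng libraries had 10.5%, 11.4% and 10.7%, which span both, and the ADARcdMUT libraries had 11.6%, 11.5% and 11.03%. In edgeR's quasi-likelihood test on reads per element, 0 were called at 250 ng against no induction, with 63 at an unadjusted p under 0.05 and a lowest adjusted p of 0.0766. The background was 0.0% in both directions. DESeq2 called 16 higher and 35 lower, beside 16.3% and 14.6% of all elements. With the replicate number as a block edgeR called 14 and 36, beside 13.7% and 12.9%. On only these 2 groups it called 17 and 51, beside 23.7% and 24.6%. Leaving out fusion 25 ng replicate 1 gave 12 and 32, beside 10.4% and 10.8%, and leaving out replicate 2 gave 16 and 45, beside 22.5% and 20.9%. The median log2 change in read share was -0.11, beside -0.00 for all elements, and ran from -0.39 to 0.36. The 250 ng libraries were also the deeper ones, with 14806339 to 25127959 reads, against 11272201 to 12994269 without induction, and the part of depth in this difference was not tested. At 25 ng 0 were called, with 0 at an unadjusted p under 0.05, beside 0.0% of all elements, and DESeq2 also called 0.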

How the data were processed

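Amplicons of the reporter were sequenced in 12 libraries, and a deposited table per library was used here. Per the file headers each table gives, per element, counts of reads, of reads with at least 1 edit and of edits summed over reads. The deposited percent columns give edits over 7 adenosines per read and reads over the library total, and the deposited score combines the share of edited reads with edits per read. The percents and the score were recomputed from the counts within rounding, and the score was not tested. The aligner was not given in the sources used here, nor was the edit caller. The extraction text in the labels speaks of embryos of another organism, whereas the source, cell line and design give HEK293T, which were followed.

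Groups were taken from the titles. Elements listed in all 12 libraries were kept (1006 of 1022). Editing was tested as log2((edits + 0.5) / (unedited recorder adenosines + 0.5)) with limma 3.58.1 (R 4.3.3), 1 fit over all libraries, with Benjamini-Hochberg adjustment over all elements and a threshold of 0.05. Relative values had each library's median subtracted. Differences between double substitutions and their parents were fitted over 1512 pairs, and read counts with edgeR 4.0.16, with DESeq2 1.42.0 as an alternative. Fits were tested on simulated data. Tables were prepared with Python 3.11.15 and pandas 2.3.3. Reads carry no molecular identifiers, so counting errors cover counting only, and p-values measure the spread between these libraries.

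No pairing of libraries by replicate number was seen in correlations of their deviations. These ran from -0.0946 to 0.0737 for same-numbered libraries and from -0.0777 to 0.0929 for different numbers. In read share at 250 ng, however, a block for replicate number raised the calls over all elements from 0.0% to 13.7% higher and 12.9% lower. Pairing was thus not excluded. The elements named are those called in a comparison, the 5 highest and 5 lowest at 250 ng, those holding TGTA or TGT, the most different from their parents, those parents, and the lowest and highest non-induced. The members and lists were chosen with earlier results of these data known. Alternatives were pseudocount, scale, read minimum, samples in the fit, replicate block, variance trend, quasi-binomial model and leaving out each library. A further set of sequences is not reported here.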

Additional observations from a re-analysis of the deposited data

How the results depend on the processing

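With 1 library left out at a time, the median levels ran from 7.78% to 7.84% at 250 ng, 4.19% to 4.37% at 25 ng, 1.89% to 1.998% with ADARcdMUT and 1.78% to 1.89% without induction. As shares of edited reads they were 22.2%, 13.7%, 7.14% and 7.04%. Absolute calls covered every element in the 4 comparisons where all were higher; ADARcdMUT against no induction gave 0 to 9 higher. Relative calls at 250 ng against no induction ran from 1 to 2 higher and 2 to 8 lower with 1 library left out. They were 2 and 8 on the arcsine scale, 3 and 10 with only the 2 groups, and 3 and 13 in percentage points, a scale chosen after seeing the data. At 25 ng they ran from 0 to 1 and 0 to 6. There the higher count was 0 with the share of edited reads or a quasi-binomial model and 2 in points, and the lower count was 1 on the arcsine scale, 2 with edited reads, 3 quasi-binomial and 1 in points. For 250 ng against 25 ng, 1 was higher on the arcsine scale, and 2 were higher and 2 lower in points. For 250 ng against ADARcdMUT the ranges were 0 to 4 and 2 to 7; the higher count was 1 with edited reads and 0 with only the 2 groups, and the lower count 9 in points. ADARcdMUT against no induction gave 0 to 2 lower in relative terms.

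Losses against the singles at positions 6 to 8 ran from 66 to 86 at 250 ng and 58 to 77 at 25 ng. Losses against the position 3 singles ran from 4 to 21 and 5 to 23, and gains from 0 to 3 and 0 to 1. At 250 ng these losses numbered 31 on the arcsine scale, 6 with edited reads, 24 with only the 2 groups and 40 in points, and the gains 2, 0 (at least 5000 reads), 2 and 3. At 25 ng the losses were 23, 9 and 25 on the arcsine, edited-read and points scales, and the gains 0 with at least 5000 reads and 0 in points. The read-share test at 250 ng gave 0 to 16 higher and 0 to 45 lower, 17 and 51 with only the 2 groups, and 16 and 35 with DESeq2. With the replicate number as a block it gave 14 and 36, and the lower relative calls at 25 ng were 2; the block moved no other count by over 1.5 times. TGGATAAA at 250 ng against no induction (0.0808 points) and TGGATATT against ADARcdMUT (0.118 points) reversed in points. The causes were not tested, except that fewer elements or libraries enter where some are left out. With 3 libraries a group and replicate SDs near 0.16 points at 250 ng, differences between single elements of about that size or smaller were not resolved. The smallest difference that could be resolved was not computed and may be larger.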
